A study of Mus musculus with 4 samples.

Results

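The cytosolic ribosomal protein genes were followed in nuclei of the mouse brain, in libraries with and without an intact Ago2 gene in the driver's lineage. They were taken by symbol: Rpl or Rps followed by a digit, the stalk genes Rplp0, Rplp1 and Rplp2, and Rpsa, leaving out symbols with -ps and the Rps6k kinases. The rule found 86 of the 32286 features. Of these, 43 encode proteins of the large subunit, 3 the stalk of the large subunit and 31 the small subunit. These 77 genes are called core genes here. Another 7 are paralogs of core genes (Rpl3l, Rpl10l, Rpl22l1, Rpl36al, Rpl39l, Rps27l and Rps27rt). The last 2, Rpl7l1 and Rps19bp1, match the symbol rule but are not ribosomal proteins of the core set: Rpl7l1 acts in ribosome assembly, and the product of Rps19bp1 binds Rps19. In the kept nuclei 85 of the 86 had at least 1 count, Rpl10l being at 0, and 84 passed the filter on low counts.

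The series holds 4 single-nucleus RNA libraries (10x 3′ v3 chemistry) made from frozen brain hemispheres of untreated C57BL/6 mice at postnatal day 14. All mice carried Slc17a6-Cre, in which Cre recombinase follows the gene of the vesicular glutamate transporter VGLUT2, so recombination is directed at cells that express Slc17a6 or once did. The 2 WT libraries were Slc17a6-Cre with Ago2 wt/wt, and the 2 KO libraries were Slc17a6-Cre with Ago2 flox/flox. The labels do not say which exons are floxed, or whether each library came from 1 animal, so p-values measure the spread between these libraries, which may be technical.

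Ago2, the argonaute protein that carries microRNAs to their targets, was not lower in the libraries labelled KO. In glutamatergic-like nuclei it stood at 73.1 and 78.9 CPM (counts per 1000000 UMIs of the same nuclei) in WT replicates 1 and 2 and at 107 and 102 CPM in KO replicates 1 and 2. Reads counted at the 3′ end can lie outside a floxed exon, so this level does not check the genotype, and WT and KO below mean the libraries labelled so. Slc17a6 was at 25.9 and 22.0 CPM in WT and at 38.2 and 32.9 CPM in KO over all kept nuclei. The files also list a feature named CRE, which had no count in any library.

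The libraries held 13107920 and 29317266 unique molecule counts (UMIs) in WT and 10845009 and 11439733 in KO. After removal of barcodes under 500 UMIs, with 5% or more mitochondrial UMIs, or marked as doublets, 3230 and 5819 WT nuclei and 3218 and 3164 KO nuclei remained, with medians of 2415 and 3094 UMIs in WT and 2313 and 2379 in KO. Between 3 and 10 barcodes were shared by any pair of libraries. WT replicate 1 stood apart: mitochondrially encoded genes made up 0.716% of the UMIs of its kept nuclei, against 0.243% in WT replicate 2 and 0.293% and 0.280% in KO, and 17.8% of its barcodes were removed by the mitochondrial maximum, against 5.64% to 8.78% of the others.

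A ribosome joins a small subunit, which reads the mRNA, to a large subunit, which forms the peptide bond. Each cytosolic ribosomal protein is in general made by 1 gene and enters the particle in 1 copy, while the stalk proteins Rplp1 and Rplp2 sit on Rplp0 in pairs and bind the elongation factors. The mRNAs are short, abundant and kept mainly in the cytoplasm, and they begin with a cytosine and a run of pyrimidines, the 5′ terminal oligopyrimidine (TOP) tract, through which their translation is controlled together. In preparations of nuclei they are therefore sparse, and reads of them can come from the nucleus itself or from cytoplasm that stays with it.

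The start-site sequences below were chosen to show named genes with and without a pyrimidine match close to the annotated start. They are 30 bases of RefSeq sequence (GRCm38.p6, the build named in the submitters' processing notes being GRCm38), from 15 bases before to 15 after each annotated start, written along the gene's strand. Capitals mark the pyrimidine hexamer CTTTTC or its relatives CTTTCC and CTCTTT and also CTTTCT, which can overlap one another. Rpl28, Rpl38 and Rps27 are core genes with a match at the start, and Rps27rt, a copy of Rps27 annotated with 1 exon, has a match too. Rps27l, Rpl7l1 and Rps19bp1, the 3 genes that were not lower in KO, have none, and Rps16, Rpl13 and Rpl41 are core genes that have none in this window. Of the 57 core genes with a RefSeq sequence, 20 (35.1%) have a match within these 30 bases.

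Rpl28 (chr7:4792950-4792979, + strand): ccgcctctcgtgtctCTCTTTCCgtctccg
Rpl38 (chr11:114668565-114668594, + strand): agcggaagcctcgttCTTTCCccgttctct
Rps27 (chr3:90213634-90213663, - strand): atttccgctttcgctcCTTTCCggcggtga
Rps27rt (chr9:114982725-114982754, - strand): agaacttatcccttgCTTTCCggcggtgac
Rps27l (chr9:66946071-66946100, + strand): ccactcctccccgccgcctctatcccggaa
Rpl7l1 (chr17:46782642-46782671, - strand): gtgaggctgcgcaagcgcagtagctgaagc
Rps19bp1 (chr15:80264292-80264321, - strand): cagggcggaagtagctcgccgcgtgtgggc
Rps16 (chr7:28350674-28350703, + strand): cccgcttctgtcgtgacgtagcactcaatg
Rpl13 (chr8:123102335-123102364, + strand): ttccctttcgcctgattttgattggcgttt
Rpl41 (chr10:128549154-128549183, - strand): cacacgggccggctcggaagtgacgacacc

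In the wider window of 100 bases around the start, 37 of the same 57 core genes (64.9%) held 1 of the 4 hexamers on the gene's strand, against 4560 of 27025 genes with a sequence (16.9%). On the other strand the shares were 10.5% and 15.7%. A match only says that the letters are there, and annotated starts can lie some bases away from the start that is used. Among other translation genes 5 of 14 had a match (35.7%), among genes of ribosome biogenesis 3 of 33 (9.09%), and among mitochondrial ribosomal proteins 11 of 69 (15.9%). The core genes with and without a match had like changes between genotypes over all kept nuclei: the median log2 change was -0.73 over the 37 with a match (range -1.04 to -0.23) and -0.75 over the 20 without (range -1.14 to -0.45).

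Over all kept nuclei, the core genes were lower in KO than in WT throughout, and by like amounts in both subunits and the stalk. Their log2 change was below 0 in 43 of 43 genes of the large subunit (median -0.74), 3 of 3 of the stalk (median -0.86) and 31 of 31 of the small subunit (median -0.76). None of them passed the adjusted threshold, and no other gene of the 16997 tested did. The 86 genes together took 0.237% and 0.181% of all UMIs in WT replicates 1 and 2 and 0.128% and 0.128% in KO replicates 1 and 2, so that the mean KO share (0.128%) was 61.4% of the mean WT share (0.209% ± 0.0397, SD, n = 2). Counted per nucleus, this is a mean of 7.67 and 8.04 UMIs of these genes in WT and 4.04 and 4.18 in KO. The 2 KO libraries were nearly equal, and both WT libraries lay above them. With 2 libraries against 2, an exact two-sided permutation test cannot go below p = 0.333, and in a sum over all nuclei a change in the cell mix and less RNA per nucleus cannot be told apart.

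Among single genes, 81 of the 84 tested members had a negative log2 change, against 51.2% of all genes tested. The log2 change was negative with an unadjusted p under 0.05 (edgeR quasi-likelihood test) in 70 members, against 2.94% of all genes, and positive at that p in 0. Both KO libraries lay below both WT libraries in 73 members, against 14.5% of all genes. The median log2 change of the members was -0.74, and that of all genes -0.01. Past the Benjamini-Hochberg adjusted threshold of 0.05 there were 0 members, against 0% of all genes in either direction. DESeq2 called 4 members lower, against 0.0883% of all genes, and edgeR without KO replicate 2 called 22 lower, against 1.27%. Without WT replicate 1, 82 of 84 members were lower, 40 with an unadjusted p under 0.05, and the median was -0.58.

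**Figure D1:**
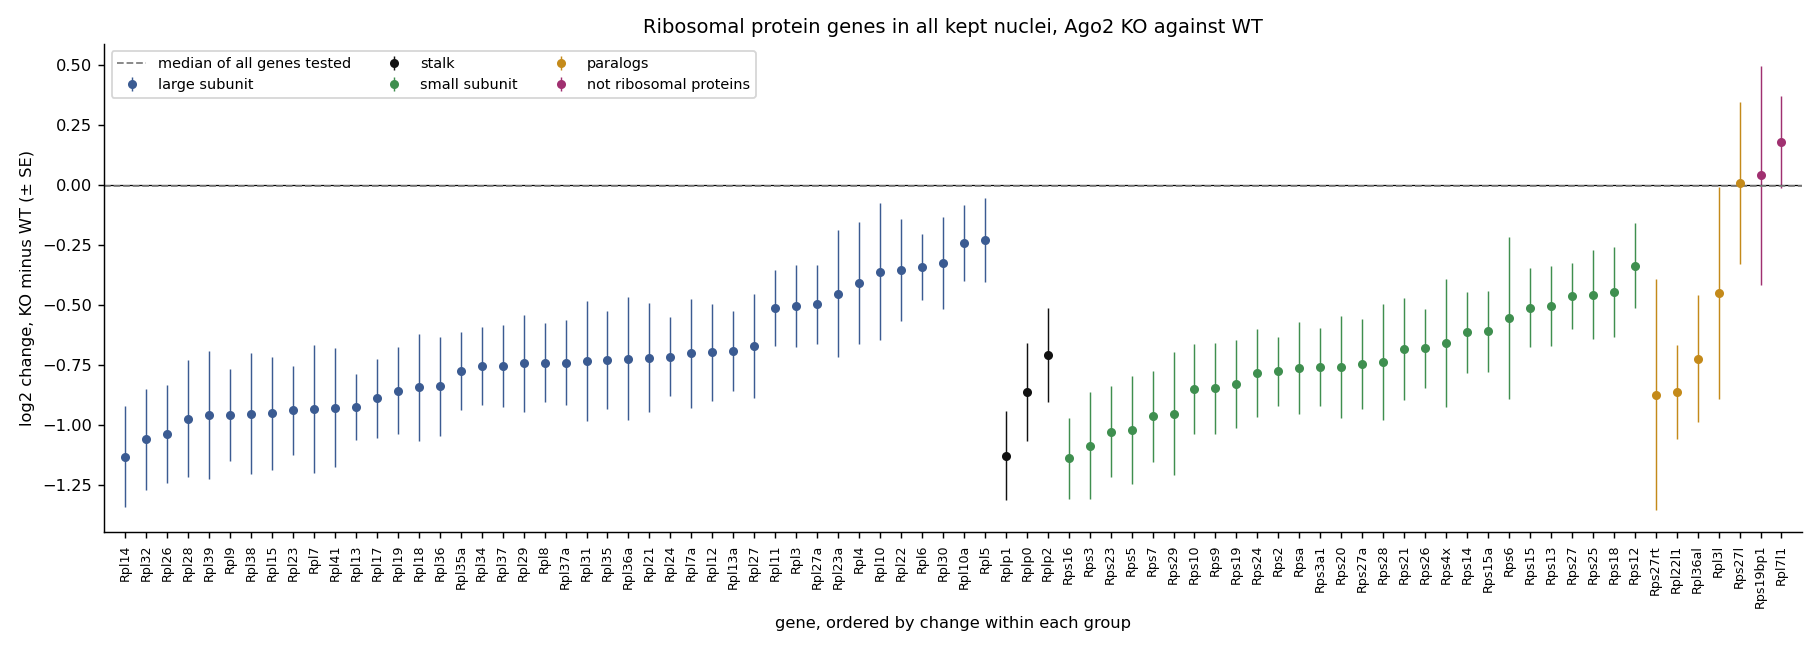
Log2 change (KO minus WT, vertical axis) of 80 of the 84 tested genes over all kept nuclei, ordered within the large subunit, the stalk, the small subunit, the paralogs and the genes that are not ribosomal proteins; bars are ± 1 standard error from edgeR and the dashed line is the median of all genes tested (-0.01). Every core gene drawn lies below 0, from -1.14 to -0.23, and Rps27l, Rps19bp1 and Rpl7l1 lie at or above it.

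The smallest p belonged to Rps16, a protein of the small subunit near the decoding site. Rps16 (chr7:28350652-28353155, 5 exons in its longest transcript) stood at 25.0 and 22.7 CPM in WT and at 11.1 and 10.9 CPM in KO. Its log2 change was -1.14 ± 0.17 (SE from edgeR over 2 libraries a genotype), with an adjusted p of 0.209 by edgeR's quasi-likelihood test. The replicates of each genotype were close together and the groups did not overlap.

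Rpl13, of the large subunit, was at 47.96 and 42.2 CPM in WT and 24.5 and 23.6 CPM in KO, a log2 change of -0.93 ± 0.14. Rps2 was at 40.3 and 36.5 CPM in WT and 22.0 and 23.4 CPM in KO (-0.78 ± 0.14). In both the KO libraries lay well below the lower WT library, and the adjusted p stayed at 0.209 to 0.349 by edgeR.

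The stalk genes behaved alike. Rplp0, the base of the stalk, was at 22.0 and 15.9 CPM in WT and 10.7 and 10.3 CPM in KO. Rplp1 was at 56.0 and 39.7 CPM in WT and 20.2 and 23.8 CPM in KO. Rplp2 was at 25.4 and 18.6 CPM in WT and 12.9 and 14.1 CPM in KO. KO was below WT in all 3, with log2 changes of -0.86 ± 0.20, -1.13 ± 0.18 and -0.71 ± 0.19, and within WT replicate 1 was higher than replicate 2 each time. Rpsa, a small-subunit protein also known as a laminin receptor, was at 48.1 and 32.4 CPM in WT and 25.5 and 22.3 CPM in KO (-0.76 ± 0.19, adjusted p = 0.431 by edgeR).

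The smallest changes among core genes were in Rpl5 (-0.23), Rpl10a (-0.24) and Rpl30 (-0.33), which were picked out after their values were seen. Rpl5 forms with Rpl11 and 5S RNA the particle that also binds Mdm2. The log2 change of Rpl11 was -0.51.

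The paralogs did not move as one group. Rpl22l1, a paralog of the RNA-binding protein Rpl22, was at 14.3 and 14.9 CPM in WT and 8.19 and 8.17 CPM in KO (-0.86 ± 0.20, adjusted p = 0.410 by edgeR). Rpl36al, a close copy of Rpl36a, was at 8.62 and 8.55 CPM in WT and 4.34 and 6.22 CPM in KO (-0.72 ± 0.26). Rps27rt had 12 and 26 UMIs in WT and 5 and 7 in KO (-0.87 ± 0.48), and Rpl3l, the form made in muscle, 16 and 33 UMIs in WT and 13 and 8 in KO (-0.45 ± 0.44).

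Rps27l, a paralog of Rps27 known as a p53 target, was the one tested paralog that was not lower: 3.73 and 2.48 CPM in WT and 3.45 and 2.72 CPM in KO (0.01 ± 0.34), with groups that overlapped. Rps27 itself had a log2 change of -0.46. Rpl39l, a form made in testis, had 1 UMI in all. The 2 genes that are not ribosomal proteins were not lower either. Rpl7l1 was at 14.7 and 11.4 CPM in WT and 14.9 and 14.9 CPM in KO (0.18 ± 0.19), and Rps19bp1 at 1.15 and 2.28 CPM in WT and 1.58 and 2.24 CPM in KO (0.04 ± 0.46). Many ribosomal protein genes have near-identical processed copies in the genome, and how the authors' counting split reads between copies is not given in the sources used here, so values of Rps27rt, Rpl36al, Rpl39l and other close copies are uncertain.

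Other gene lists tell how far the difference went beyond ribosomal proteins. Genes of the translation machinery outside the symbol rule, chosen from elongation factors, initiation factors and known TOP genes, were lower in 17 of 21 (median -0.15), and 5 of them had an unadjusted p under 0.05. Fau, which encodes the ribosomal protein of the small subunit fused to a ubiquitin-like protein, was at 37.3 and 28.0 CPM in WT and 19.2 and 17.5 CPM in KO (-0.85). Tpt1, a TOP mRNA, had a log2 change of -0.99, and Eef1a1, which brings aminoacyl-tRNA to the ribosome, -0.55. Genes that build ribosomes in the nucleolus split evenly: 22 of 40 were lower (median -0.09), led by Nop10 (-0.93), Bop1 (-0.45) and Nob1 (-0.35). Mitochondrial ribosomal proteins, which are made from nuclear genes for another ribosome, were lower in 58 of 77 (median -0.15), led by Mrpl46 (-1.21), Mrps21 (-0.56) and Mrpl34 (-1.09). None of these genes passed the adjusted threshold.

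Lists that bear on RNA from the cytoplasm moved with the members. Of 25 abundant cytosolic mRNAs that are not ribosomal, 24 were lower in KO (median -0.46), 16 of them with an unadjusted p under 0.05. Fth1, the ferritin heavy chain, was at 182 and 112 CPM in WT and 65.6 and 70.2 CPM in KO (-1.13), Ftl1 had a log2 change of -0.88, and Mbp, a myelin mRNA, was at 1418 and 750 CPM in WT and 522 and 495 CPM in KO (-1.10). The list took 0.415% and 0.274% of UMIs in WT and 0.247% and 0.237% in KO. Mitochondrially encoded genes were lower in 12 of 13 (median -0.74), led by mt-Co1 (-0.78), mt-Co3 (-0.79) and mt-Atp6 (-0.76), but this rested on WT replicate 1: WT replicate 2 lay below both KO libraries in the list's share of UMIs. Nuclear long noncoding RNAs were lower in 3 of 8 (median 0.10). Neat1 was at 20.7 and 13.1 CPM in WT and 30.9 and 29.8 CPM in KO (0.85), Rian had a log2 change of 0.19 and Malat1 of -0.21. The part of cytoplasmic RNA in the members' difference was not tested.

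**Figure D2:**
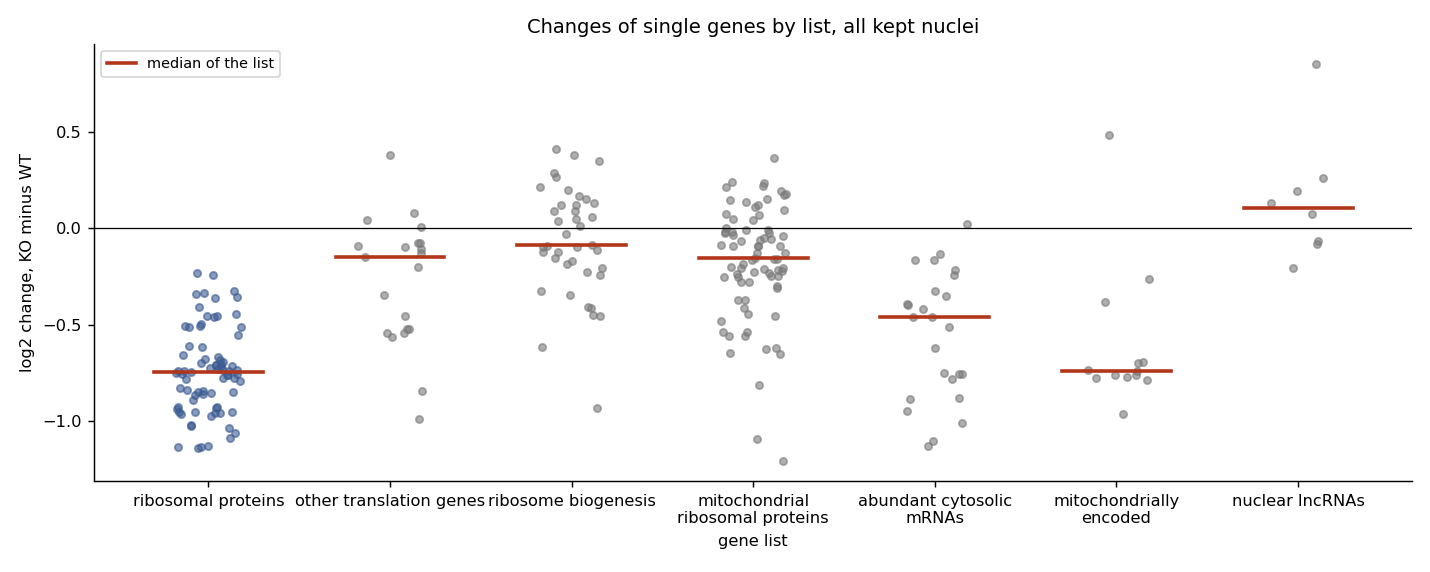
Log2 change (KO minus WT, vertical axis) of each tested gene over all kept nuclei in 7 lists; each point is 1 gene and each red line the median of its list. The 77 core ribosomal proteins all lie below 0, the abundant cytosolic mRNAs lie lower as well (median -0.46), and the genes of ribosome biogenesis lie around 0 (median -0.09).

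Gene span went with the difference among other protein-coding genes, and not in one direction among core genes. The tested core genes are compact, spanning 828 to 31449 bases of the genome (median 3289; GENCODE M21, GRCm38). Among other protein-coding genes of 2 to 5 kb, 72.7% had a negative log2 change (891 genes, median -0.23), and among those of 100 kb and more, 38.6% (2403 genes, median 0.04). The 187 other genes under 2 kb had a median of -0.41. The median was -0.88 over the 8 core genes under 2 kb, -0.75 over the 53 of 2 to 5 kb and -0.805 over the 12 of 5 to 10 kb. It was -0.558 over the 2 core genes of 10 to 20 kb and -0.563 over the 2 of 20 to 50 kb. Across the 77 core genes, which are not independent replicates, Spearman's rho between span and log2 change was 0.083. These bins were chosen after the data were seen and carry no test.

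Within each cell class, most tested members had a negative log2 change. Nuclei were clustered without the member genes and named from marker genes, and 9 classes had at least 20 nuclei in every library. The members' share of UMIs did not overlap between genotypes in 8 of the 9 classes, endothelial-like nuclei being the exception. The mean KO share as a percentage of the mean WT share was 69.9% in glutamatergic-like nuclei, 62.9% in GABAergic-like, 56.4% in cerebellar granule-like, 49.4% in astrocyte-like, 62.6% in oligodendrocyte-like, 58.6% in OPC-like (oligodendrocyte precursor), 72.0% in microglia-like, 81.2% in endothelial-like and 64.7% in fibroblast-like nuclei. The driver is directed at cells of the Slc17a6 lineage, and the difference was also present in classes that are not glutamatergic.

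**Figure D3:**
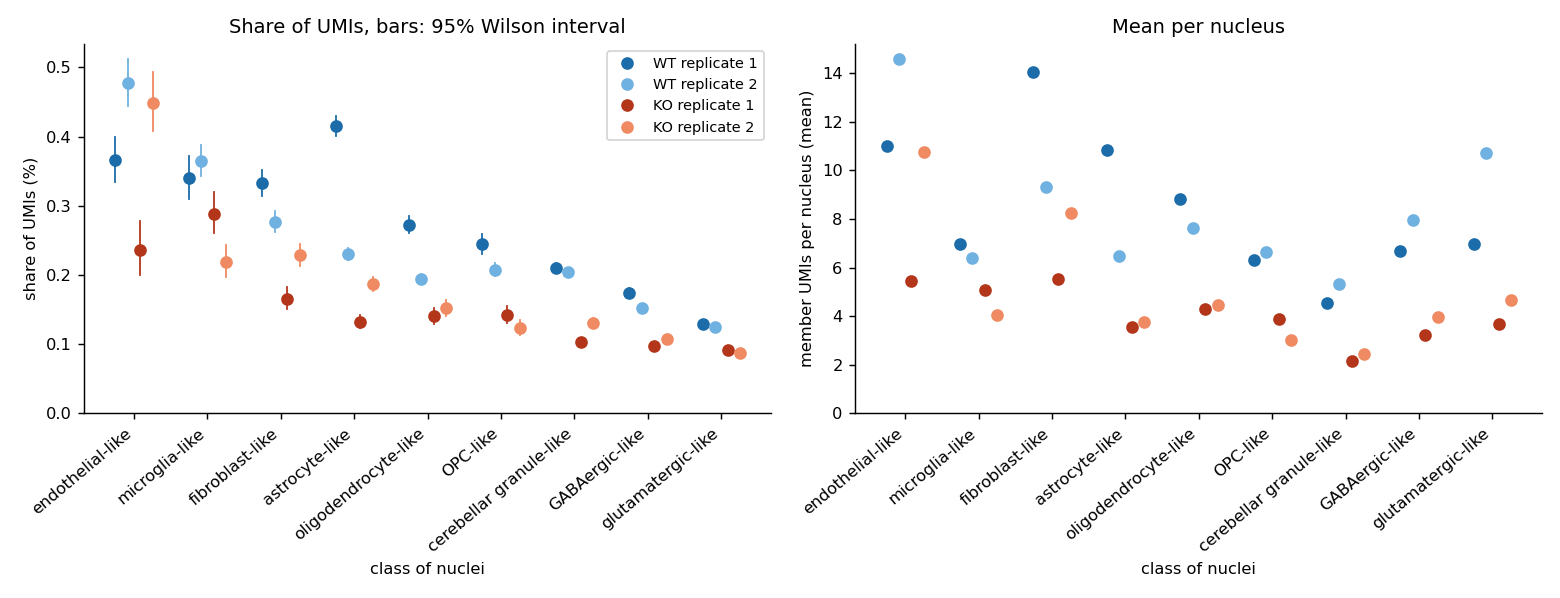
Left, share of UMIs taken by the 86 genes (%) in each class and library, with 95% Wilson intervals that cover counting error only; right, their mean UMIs per nucleus. Points are libraries. In the left panel the KO points lie below the WT points in every class except endothelial-like, and in the right panel in all 9 classes; the share runs from low in glutamatergic-like to high in endothelial-like nuclei.

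In glutamatergic-like nuclei (401 and 786 in WT, 411 and 340 in KO) the share was 0.129% and 0.125% in WT and 0.0909% and 0.0866% in KO. Of 79 members tested, 74 were lower (51.0% of all genes), 24 with an unadjusted p under 0.05 (2.48% of all genes; 0 members and 2.66% of all genes were higher at that p) and 0 past the adjusted threshold (0.00904% of all genes lower). Both KO libraries lay below both WT libraries in 46 members, against 14.1% of all genes. The median log2 change was -0.60, and -0.01 over all genes. Without WT replicate 2, which is the deepest library, 10 members had an unadjusted p under 0.05 in place of 24.

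The members with the smallest p in glutamatergic-like nuclei included Rplp1, Rps29, Rpl17 and Rpl13. Rplp1 was at 33.8 and 27.4 CPM in WT and 14.4 and 13.7 CPM in KO (-1.14 ± 0.26, adjusted p = 0.568 by edgeR). Rps29, a small zinc-binding protein of the small subunit, was at 27.3 and 22.3 CPM in WT and 10.2 and 12.6 CPM in KO (-1.13 ± 0.29). Rpl17 and Rpl13 had log2 changes of -1.38 and -1.04. In these 4 the KO libraries were below both WT libraries.

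Of the other named genes there, Rplp0 was at 9.26 and 9.91 CPM in WT and 4.81 and 4.92 CPM in KO (-1.03 ± 0.40). Rplp2 was at 16.2 and 10.95 CPM in WT and 8.42 and 9.30 CPM in KO (-0.59 ± 0.35). Rpsa overlapped between genotypes, at 17.1 and 19.1 CPM in WT and 18.04 and 9.84 CPM in KO (-0.46 ± 0.32). Rpl22l1 had a log2 change of -1.29, Rpl36al of -0.45 and Rpl7l1 of 0.29. Among the other lists, 20 of 25 abundant cytosolic mRNAs were lower. Mbp, which neurons are not known to make in quantity, was at 263 and 240 CPM in WT and 133 and 130 CPM in glutamatergic-like KO nuclei (-0.98 ± 0.14, adjusted p = 0.0996 by edgeR), and Fth1 had a log2 change of -1.30. In oligodendrocyte-like nuclei, the cells that make it, Mbp was at 4809 and 4318 CPM in WT and 4712 and 4620 CPM in KO (0.01 ± 0.18). The part of RNA from other cells in the members' difference was not tested.

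In GABAergic-like nuclei (340 and 665 in WT, 417 and 371 in KO) the share was 0.173% and 0.153% in WT and 0.0975% and 0.108% in KO. Of 75 members tested, 71 were lower (50.3% of all genes), 32 with an unadjusted p under 0.05 (2.74%, and 0 higher, 1.79%) and 0 past the adjusted threshold (0%). The count with an unadjusted p under 0.05 was 19 without WT replicate 1 and 20 without KO replicate 1. In 59 the groups did not overlap, with KO lower (15.5% of all genes). The smallest p belonged to Rplp1, at 32.8 and 34.3 CPM in WT and 12.4 and 15.5 CPM in KO (-1.30 ± 0.27, adjusted p = 0.990 by edgeR). Rpl9, Rpl13, Rps24 and Rpl14 followed, with log2 changes of -1.20, -1.15, -1.13 and -1.61. Rpsa was at 26.7 and 29.4 CPM in WT and 13.9 and 19.2 CPM in KO. Rplp2 and Rplp0 had log2 changes of -0.91 and -0.52, Rpl22l1 of -0.72 and Rpl7l1 of 0.21.

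Cerebellar granule-like nuclei were the most numerous class. The members' share of UMIs was 0.210% and 0.204% in WT and 0.102% and 0.131% in KO. Of 80 members tested, 78 were lower (51.6% of all genes), 55 with an unadjusted p under 0.05 (3.45%, and 0 higher, 2.67%) and 0 past the adjusted threshold (0%), and in 71 the groups did not overlap (19.1% of all genes, lower in KO). The count with an unadjusted p under 0.05 was 28 without WT replicate 2, and 23 members fell past the adjusted threshold without KO replicate 2, against 1.6% of all genes. Rplp2 was at 32.6 and 21.7 CPM in WT and 10.9 and 10.6 CPM in KO (-1.26 ± 0.32). Rplp1 varied between the KO libraries, at 46.7 and 43.2 CPM in WT and 12.0 and 30.5 CPM in KO (-1.10 ± 0.34). Rplp0 and Rpsa had log2 changes of -0.69 and -0.59.

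In astrocyte-like nuclei the size of the difference rested on WT replicate 1. The share was 0.415% and 0.230% in WT and 0.132% and 0.186% in KO. Of 69 members tested, 68 were lower (50.9% of all genes), 38 with an unadjusted p under 0.05 (4.11%, and 0 higher, 3.64%), 0 past the adjusted threshold (0.0238% of all genes lower, 0.095% higher), and in 51 the groups did not overlap (17.8%). Without WT replicate 1, 59 of 65 were lower, 11 with an unadjusted p under 0.05, and the median log2 change went from -0.996 to -0.54. Without WT replicate 2, 62 had an unadjusted p under 0.05. The mitochondrially encoded genes took 1.64% of UMIs in astrocyte-like nuclei of WT replicate 1, against 0.386% to 0.535% in the other libraries. Mbp was at 3926 and 1213 CPM in WT and 312 and 951 CPM in KO in these nuclei.

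The smallest p in astrocyte-like nuclei belonged to Rpl17 (-2.04 ± 0.48), Rps29 (-1.42 ± 0.34), Rplp1 (-1.58 ± 0.39), Rpl11 (-1.50 ± 0.37) and Rpl24 (-1.43 ± 0.39), with adjusted p from 0.248 to 0.333 by edgeR. Rpl11 was at 42.7 and 46.3 CPM in WT and 20.3 and 11.4 CPM in KO, with little difference between the WT libraries. Rplp1 was at 125 and 62.3 CPM in WT and 23.4 and 39.0 CPM in KO. Rpsa was at 122 and 66.8 CPM in WT and 20.3 and 48.7 CPM in KO. In Rplp1 and Rpsa the WT libraries differed from each other by more than the lower WT library differed from the higher KO library. Rplp0 had a log2 change of -1.004, Rplp2 of -0.53 with overlapping groups, Rpl22l1 of -0.39 and Rpl7l1 of 0.42.

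In oligodendrocyte-like nuclei the share was 0.273% and 0.194% in WT and 0.140% and 0.152% in KO. Of 59 members tested, 56 were lower (50.1% of all genes), 12 with an unadjusted p under 0.05 (3.46%, and 0 higher, 2.38%), 0 past the adjusted threshold (0.0143% lower, 0.0713% higher), and in 34 the groups did not overlap (16.1%). Rpl23, at 35.7 and 32.0 CPM in WT and 7.98 and 10.8 CPM in KO, had the smallest p (-1.82 ± 0.49, adjusted p = 0.633 by edgeR). Rps29, Rps3a1, Rpl36 and Rplp1 followed (-1.44, -1.56, -1.58 and -1.24). Rpsa overlapped between genotypes, at 53.6 and 36.8 CPM in WT and 45.2 and 30.3 CPM in KO (-0.25 ± 0.36). Without WT replicate 1, 42 of 48 were lower and 4 had an unadjusted p under 0.05.

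The smaller classes tested fewer members. In OPC-like nuclei 38 of 38 were lower (49.3% of all genes), 15 with an unadjusted p under 0.05 (3.51%, and 0 higher, 3.17%), 0 past the adjusted threshold (0.377% lower, 0.148% higher), with shares of 0.244% and 0.208% in WT and 0.142% and 0.123% in KO. Lists that bear on RNA quality and cytoplasm moved with them in OPC-like nuclei: 10 of 10 mitochondrially encoded genes were lower, 6 past the adjusted threshold, with 0.717% and 0.231% of UMIs in WT and 0.202% and 0.169% in KO, and 18 of 19 abundant cytosolic mRNAs were lower, 2 past it. Their part in the members' difference was not tested. In fibroblast-like nuclei 44 of 51 were lower (49.1%), 9 with an unadjusted p under 0.05 (2.65%, and 0 higher, 2.93%) and 0 past the adjusted threshold (0%), with shares of 0.332% and 0.277% in WT and 0.166% and 0.229% in KO. In microglia-like nuclei 11 of 12 were lower (49.9%), 2 with an unadjusted p under 0.05 (2.44%, and 0 higher, 3.11%), 0 past the adjusted threshold (0%), with shares of 0.340% and 0.365% in WT and 0.289% and 0.218% in KO. The count with an unadjusted p under 0.05 in OPC-like nuclei was 4, 7 and 5 without WT replicate 1, WT replicate 2 and KO replicate 2. It was 1 and 4 in fibroblast-like nuclei without WT replicate 1 and KO replicate 1, and 1 and 0 in microglia-like nuclei without WT replicate 1 and WT replicate 2.

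In endothelial-like nuclei, with 26 to 51 nuclei a library, the shares were 0.366% and 0.477% in WT and 0.235% and 0.449% in KO and overlapped. Of 7 members tested 6 were lower (53.8% of all genes), 0 with an unadjusted p under 0.05 (4.59%) and 0 past the adjusted threshold (0%). Without WT replicate 2, 2 of 10 were lower, so most members there changed direction, and without KO replicate 2, 21 of 26 were lower, 4 with an unadjusted p under 0.05. Rplp1 was at 90.6 and 76.9 CPM in WT and 33.2 and 83.3 CPM in KO.

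Single members kept their direction over classes. Among the core genes, 61 were tested in at least 5 classes, and 49 of them were lower in each class that tested them; of all 7148 genes tested in at least 5 classes, 4.28% were lower in each. Another 9 were lower in all but 1 class, and 3 in fewer: Rpsa (6 of 8), Rpl10 (3 of 5) and Rpl22 (2 of 5). Rps29, Rpl13 and Rpl37 were among those lower in 9 of 9 classes. Rpl22, which is not needed for translation in general and has a paralog in Rpl22l1, had log2 changes of 0.10 in glutamatergic-like, 0.33 in GABAergic-like and 0.49 in oligodendrocyte-like nuclei, and of -0.72 in cerebellar granule-like and -1.56 in astrocyte-like nuclei. Rpl7l1 was higher in all 4 classes that tested it. The classes come from the same 4 libraries, so agreement between them is not independent.

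**Figure D4:**
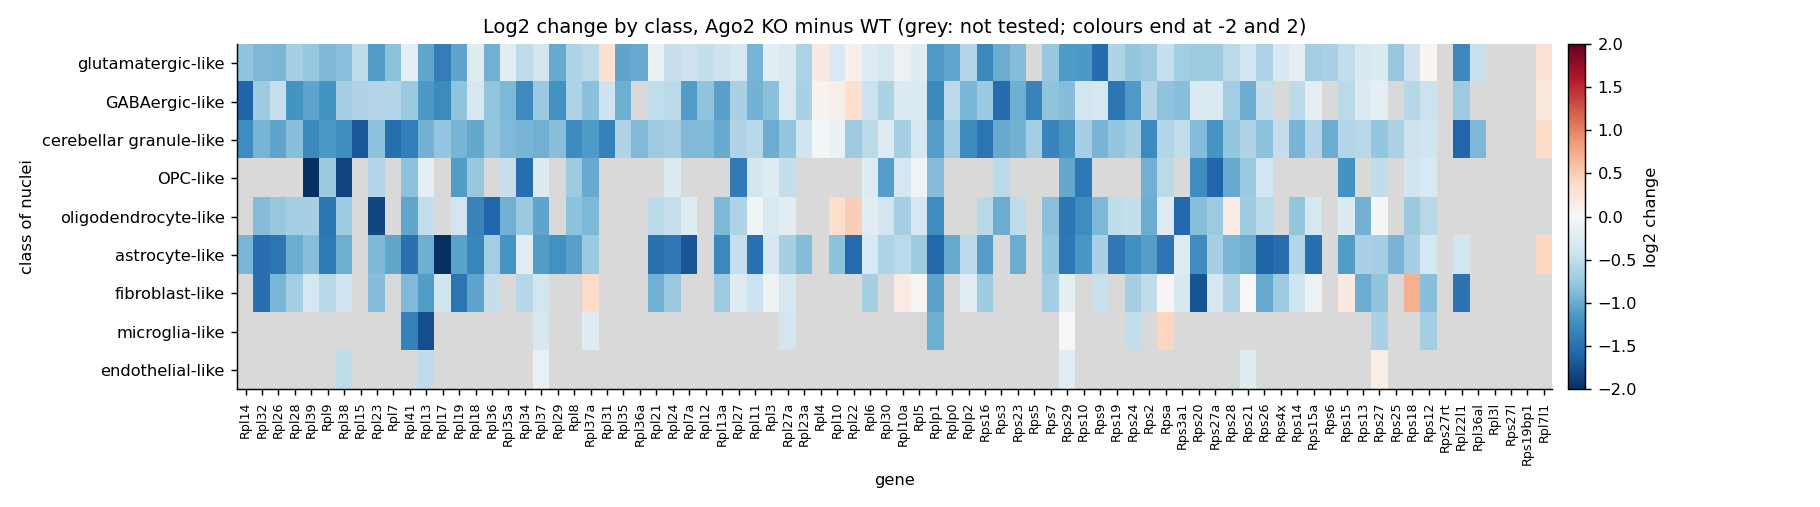
Log2 change (KO minus WT) of 80 of the 84 tested genes (columns) in each class (rows); blue is lower in KO, red higher, grey not tested, and the colour ends at -2 and 2. Blue fills nearly all tested cells of the core genes, few genes were tested in microglia-like and endothelial-like nuclei, and Rpl7l1, in the last column, is red in the 4 classes that tested it.

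The difference between genotypes was then compared between glutamatergic-like nuclei, the class nearest to the driver, and other classes, with the library as a block. In the comparison with GABAergic-like nuclei, 0 of 80 members passed the adjusted threshold (0.129% and 0% of all genes, lower and higher), and 1 had an unadjusted p under 0.05. With astrocyte-like nuclei it was 0 of 81 (0.127% and 0.136% of all genes), with 5 at that unadjusted p, all with a larger fall in astrocyte-like nuclei. With oligodendrocyte-like nuclei it was 0 of 79 (0.0421% and 0.0252%), with 1 at that p. The median difference of the log2 changes was -0.10, -0.31 and -0.05 (other class minus glutamatergic-like), beside -0.02, 0.01 and -0.05 over all genes. Without WT replicate 1 the median was 0.004 for astrocyte-like nuclei, with 0 members lower at an unadjusted p under 0.05, and 0.14 for oligodendrocyte-like nuclei.

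For Rplp1 the differences in log2 change were -0.20 ± 0.36, -0.33 ± 0.40 and -0.12 ± 0.47, and for Rplp0 0.50 ± 0.57, 0.13 ± 0.57 and 0.35 ± 0.71. Those of Rplp2 were -0.36 ± 0.47, 0.11 ± 0.53 and -0.17 ± 0.67. Rpsa differed by -0.88 ± 0.40 in astrocyte-like nuclei (adjusted p = 0.676 by edgeR), by -0.35 ± 0.39 in GABAergic-like and by 0.25 ± 0.43 in oligodendrocyte-like nuclei. The standard errors are as large as many of the changes themselves, so these fits do not show that the classes were alike.

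The level of the members was also compared between classes. Over the 4 libraries the mean share of UMIs was 0.382% ± 0.108 (SD, n = 4) in endothelial-like, 0.303% ± 0.0646 in microglia-like, 0.251% ± 0.0710 in fibroblast-like, 0.241% ± 0.123 in astrocyte-like, 0.190% ± 0.0600 in oligodendrocyte-like, 0.179% ± 0.0565 in OPC-like, 0.162% ± 0.0535 in cerebellar granule-like, 0.133% ± 0.0361 in GABAergic-like and 0.108% ± 0.0222 in glutamatergic-like nuclei. Neighbours in this order lay within their SD, which spans both genotypes and so does not measure differences between classes within a library. Depth differed as well and did not follow the same order: averaged over libraries, the median nucleus held 5295 UMIs in glutamatergic-like and 3585 in GABAergic-like nuclei, the classes with the lowest shares, 1783 in endothelial-like nuclei and 1923 in cerebellar granule-like nuclei. Among nuclei of 2000 to under 4000 UMIs only, the share was 0.150% ± 0.0481 (SD, n = 4) in glutamatergic-like, 0.148% ± 0.0505 in GABAergic-like and 0.147% ± 0.0538 in cerebellar granule-like nuclei. In the same range it was 0.179% ± 0.0623 in OPC-like, 0.191% ± 0.0592 in oligodendrocyte-like and 0.233% ± 0.126 in astrocyte-like nuclei. At this depth the means of the 3 neuronal classes were nearly equal, and all 6 lay within each other's SD over both genotypes. By library (WT replicates 1 and 2, then KO replicates 1 and 2), the share was 0.184%, 0.1995%, 0.107% and 0.111% in glutamatergic-like nuclei. It was 0.248%, 0.214%, 0.135% and 0.118% in OPC-like and 0.259%, 0.220%, 0.131% and 0.152% in oligodendrocyte-like nuclei. In astrocyte-like nuclei it was 0.410%, 0.227%, 0.1195% and 0.176%. These 3 glial classes lay above glutamatergic-like nuclei in every library. Counted per nucleus, the members gave 6.50 ± 3.13 UMIs in glutamatergic-like, 5.45 ± 2.25 in GABAergic-like, 6.16 ± 3.40 in astrocyte-like, 6.30 ± 2.28 in oligodendrocyte-like, 4.96 ± 1.79 in OPC-like, 5.62 ± 1.32 in microglia-like and 3.60 ± 1.56 in cerebellar granule-like nuclei. Fibroblast-like and endothelial-like nuclei had 9.28 ± 3.56 and 10.5 ± 3.76. On this scale most classes lay within each other's SD, which again spans both genotypes.

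Tested against glutamatergic-like nuclei in the same libraries, members were higher and past the adjusted threshold in 5 of 76 in GABAergic-like (16.5% of all genes), 49 of 80 in cerebellar granule-like (28.5%), 59 of 76 in astrocyte-like (30%), 44 of 79 in oligodendrocyte-like (29.6%), 35 of 73 in OPC-like (25.3%), 51 of 70 in microglia-like (22.4%), 45 of 68 in endothelial-like (18.2%) and 42 of 73 in fibroblast-like nuclei (29.7%). The share in GABAergic-like nuclei is below that of all genes, and the others are above it. Some counts rest on 1 WT library. Without WT replicate 1 they were 2 of 74 in GABAergic-like (14.3% of all genes), 33 of 76 in astrocyte-like (27.3%) and 26 of 78 in oligodendrocyte-like nuclei (27.3%). They were 21 of 72 in OPC-like (22.8%) and 28 of 70 in fibroblast-like nuclei (26.6%). Without WT replicate 2 they were 2 of 75 in GABAergic-like (13.1%), 22 of 78 in cerebellar granule-like (22.1%) and 18 of 63 in OPC-like nuclei (21.1%). They were 32 of 67 in microglia-like (17.7%) and 28 of 67 in endothelial-like nuclei (13.2%). In cerebellar granule-like, oligodendrocyte-like and OPC-like nuclei the members then lay much nearer to the share of all genes than with all libraries. Members lower and past the threshold were Rps27 and Rpl15 in cerebellar granule-like (29.3% of all genes lower) and in astrocyte-like nuclei (31%), and Rpl15 in oligodendrocyte-like nuclei (31.7%), with 0 in the others (18.4% in GABAergic-like, 27.6% in OPC-like, 24.6% in microglia-like, 23.8% in endothelial-like and 31.5% in fibroblast-like).

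Rps29 was higher in all 8 classes, by 0.63 on the log2 scale in GABAergic-like, 1.13 in cerebellar granule-like, 1.74 in astrocyte-like, 1.03 in oligodendrocyte-like, 0.92 in OPC-like, 2.37 in microglia-like, 2.38 in endothelial-like and 1.66 in fibroblast-like nuclei. In GABAergic-like nuclei the other members past the threshold included Rps28 and Rpl24. In cerebellar granule-like nuclei Rpl24 (0.99), Rpl36 (1.00), Rps28, Rpl34, Rpl38, Rpsa, Rps21 and Rps10 followed Rps29, and in astrocyte-like nuclei Rpsa (1.72), Rpl13 (1.34), Rps21, Rplp1, Rps27a, Rplp0, Rpl39, Rps28 and Rpl41.

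Oligodendrocyte-like nuclei were led by Rpl36 (1.53), Rpl11 (1.20) and Rps9 (1.49), with Rpl41, Rpsa, Rps29, Rpl18, Rps24 and Rpl8 next. OPC-like nuclei were led by Rpl13 (1.68) and Rpl18 (1.38), with Rps29, Rps28, Rpl41, Rpl32, Rps10, Rpl38 and Rplp1. In microglia-like nuclei Rps12 (1.45), Rpl32 (2.08), Rpl8, Rps21, Rpl13, Rps9 and Rpl27a followed Rps29. Endothelial-like nuclei were led by Rpl38 (2.71) and Rps21 (2.46), with Rps29, Rpl36, Rpl27, Rpl24, Rpl7 and Rpl13, and in fibroblast-like nuclei Rps4x (2.15), Rpsa (1.47), Rps28, Rpl41, Rpl24, Rps27a, Rps14, Rplp2 and Rplp1 followed Rps29.

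Rpl15, which was lower by 0.77 in cerebellar granule-like, 1.23 in astrocyte-like and 2.02 in oligodendrocyte-like nuclei on the log2 scale, went against the other members. Rps27 was lower by 0.50 and 0.34 in cerebellar granule-like and astrocyte-like nuclei. Of the stalk genes, Rplp1 was higher by 1.18 in astrocyte-like and 1.27 in microglia-like nuclei and did not differ past the threshold in GABAergic-like nuclei (0.04 ± 0.15, adjusted p = 0.858 by edgeR). These calls compare levels scaled to the class total after adjustment for composition, and the part of depth in them was not tested.

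The depth of a nucleus moved with the members' share within each genotype, and the genotypes differed at every depth. In nuclei of 500 to under 1000 UMIs the share was 1.02% and 1.15% in WT and 0.553% and 0.310% in KO. From 1000 to under 2000 UMIs it was 0.326% and 0.304% in WT and 0.172% and 0.173% in KO. From 2000 to under 4000 UMIs it was 0.248% and 0.220% in WT and 0.122% and 0.141% in KO, and from 4000 UMIs on 0.175% and 0.145% in WT and 0.103% and 0.104% in KO. The KO libraries were below the WT libraries in all 4 bins, at 39.8%, 54.7%, 56.2% and 64.6% of WT from the lowest to the highest.

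The lowest bin did not hold the same kinds of nuclei in both genotypes. A cluster with few UMIs per nucleus, which no marker list named, made up 79.0% and 84% of this bin in WT and 53.1% and 30.4% in KO. Among the nuclei of that cluster in the bin, the members' share was 1.23% and 1.30% in WT and 0.892% and 0.455% in KO. Among the other nuclei of the bin it was 0.432% and 0.491% in WT and 0.229% and 0.257% in KO. KO was below WT in both parts, and the part richer in members took up more of the bin in WT.

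The members' UMIs per nucleus changed far less with depth than the total. In WT they averaged 7.94 in the lowest bin, 5.02 and 6.51 in the middle bins and 11.5 in the highest, while the mean total over the 4 libraries went from 756 to 6989 UMIs. In KO the averages were 3.39, 2.61, 3.70 and 6.94. Within 6 classes and the upper 3 bins, 18 combinations in all, both KO libraries were below both WT libraries in 18, with KO at 46.4% to 74.6% of WT. Nuclei under 1000 UMIs made up 10.8% and 4.30% of kept nuclei in WT and 7.09% and 8.72% in KO.

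**Figure D5:**
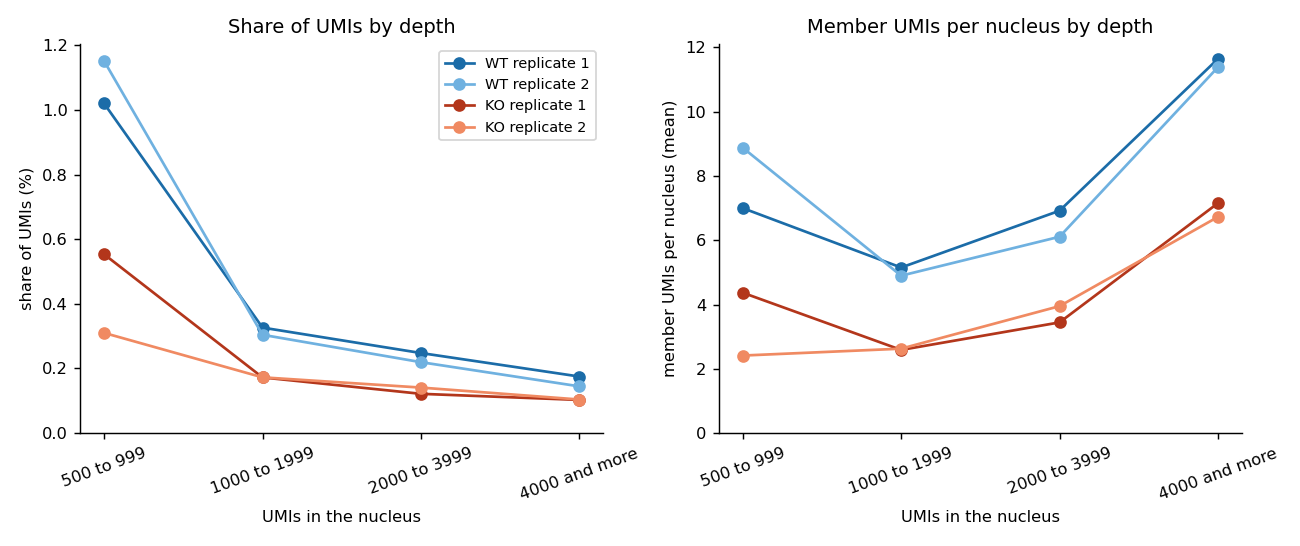
Share of UMIs (left, %) and mean UMIs per nucleus (right) of the 86 genes in 4 bins of total UMIs per nucleus, 1 line for each library. The share drops from over 1% to under 0.2% in WT as depth grows, the UMIs per nucleus lie between 4.90 and 11.6 in WT, and both KO lines lie below both WT lines in every bin.

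Members passed the adjusted threshold in the lowest bin, in which the make-up of nuclei differed between genotypes as given above. There 70 of 70 tested members were lower (49.1% of all genes), 60 with an unadjusted p under 0.05 (6.99%), and 10 of them fell past the threshold, out of 24 genes that fell past it (0.527% of all genes); 0 members and 0.0439% of all genes rose past it. These were Rpl38, Rpl28, Rpl37, Rpl41, Rpl13, Rps16, Rps29, Rplp1, Rps21 and Rps28. The median log2 change of the members was -1.35, and 0.01 over all genes. In the other bins 0 members passed it by edgeR, and 60 of 80, 62 of 81 and 60 of 83 were lower with an unadjusted p under 0.05 (3.78%, 2.92% and 2.86% of all genes), with medians of -0.89, -0.85 and -0.66. Without WT replicate 1 these counts were 39 of 80, 47 of 82 and 25 of 83. In the lowest bin 37 of 75 had an unadjusted p under 0.05 without KO replicate 2.

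Rpl38, a large-subunit protein whose loss in mice changes the axial skeleton, was at 327 and 290 CPM in WT and 88.9 and 55.9 CPM in KO in the lowest bin (-2.17 ± 0.33, adjusted p = 0.0140 by edgeR). Rpl28 was at 193 and 197 CPM in WT and 38.9 and 32.6 CPM in KO (-2.50 ± 0.38, adjusted p = 0.0140 by edgeR). The start sites of Rpl28 and Rpl38 shown above carry a pyrimidine match, and those of Rpl13, Rpl41 and Rps16, which also fell in this bin, carry none. Rplp1 was at 268 and 389 CPM in WT and 128 and 79.2 CPM in KO (-1.73 ± 0.33, adjusted p = 0.0341 by edgeR).

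The other 7 fell by 1.51 to 2.43 on the log2 scale, from Rps29 (-1.51) and Rps28 (-1.61) to Rps16 (-2.43). In all 10 both KO libraries lay below both WT libraries, against 17.9% of all genes tested in this bin. The 10 were named for falling past the threshold in the same libraries, so this separation is no further result. Among them Rpl41 varied most within KO (156 and 65.2 CPM). Rplp0, Rplp2 and Rpsa were lower in the same bin without passing the threshold (-1.62, -1.33 and -1.18). Left out one at a time, WT replicate 1, WT replicate 2, KO replicate 1 and KO replicate 2 gave 20, 16, 31 and 8 members past it, against 0.975%, 1.19%, 1.45% and 0.763% of all genes lower. With scaling to the total alone 2 of 70 passed it, against 6 of 4551 genes lower. In this bin 22 of 23 abundant cytosolic mRNAs and 11 of 11 mitochondrially encoded genes were lower as well, with the latter at 1.28% and 1.42% of UMIs in WT and 0.975% and 0.498% in KO.

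The cluster with few UMIs, taken over all depths, held 355 and 298 nuclei in WT and 228 and 139 in KO, with a median of 773 UMIs, and its leading genes included Hbb-bs, Fth1, Mbp, Tpt1 and Rpl41. The members' share there was 1.02% and 1.03% in WT and 0.623% and 0.287% in KO. In it 77 of 78 members were lower (50.8% of all genes), 48 with an unadjusted p under 0.05 (5.65%) and 0 past the adjusted threshold (0.082%). Without KO replicate 1, 43 fell past the adjusted threshold (2.42% of all genes) and the median log2 change went from -1.02 to -1.93, and without KO replicate 2, 6 fell past it (0.645%) and 30 had an unadjusted p under 0.05. In this cluster 12 of 12 mitochondrially encoded genes were lower, 11 of them with groups that did not overlap, at 1.31% and 1.14% of UMIs in WT and 0.834% and 0.387% in KO. Of the abundant cytosolic mRNAs 23 of 24 were lower, at 2.06% and 1.88% of UMIs in WT and 1.34% and 0.431% in KO. Their part in the members' difference was not tested. With this cluster left out of all kept nuclei, which was decided after seeing the data, the shares were 0.210% and 0.169% in WT and 0.114% and 0.126% in KO, 80 of 83 members were lower (50.6% of all genes) and 69 had an unadjusted p under 0.05 (2.65%), or 40 without WT replicate 1. The barcodes removed for mitochondrial UMIs held a share of 1.25% and 1.32% in WT and 0.915% and 1.07% in KO.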

How the data were processed

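The deposited UMI counts per gene and barcode of 4 libraries (2 WT, 2 KO) were used as the authors made them, with Cell Ranger 4.0.0, Seurat 3.2.3 and the build GRCm38 named in the submitters' processing notes; counting settings are not given in the sources used here. The member genes and all lists were chosen with earlier results of these data known. Barcodes under 500 UMIs or with 5% or more mitochondrial UMIs were removed, and so were the highest Scrublet scores up to 0.8% of barcodes per 1000 (its own threshold marked 0 to 3 per library; 96 to 365 were removed). Nuclei were clustered in scanpy 1.11.5 (2000 variable genes, 30 components, 15 neighbours, Leiden resolution 1) without the member genes, and named "-like" by the class with most markers raised, at least 3. A cluster stayed unnamed where another class had as many markers, overall or among its top 10 genes, where under 75% of nuclei held a marker, or where depth was far below its library's with no marker in the top 10. This left 8 of 27 clusters (24.2% of nuclei) unnamed, 6 of them with at least 3 markers of 1 class. The naming rule was settled after the clusters were seen, and 9 of the resulting classes were tested.

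Counts were summed per library and class and tested with edgeR 4.0.16 (filterByExpr, TMM, glmQLFTest, two-sided, Benjamini-Hochberg over all genes tested, threshold 0.05). CPM are counts per 1000000 UMIs of the population. Shares carry 95% Wilson intervals for counting error only. Named genes were those past the threshold (up to 10 for each direction), the 5 smallest p in the main populations, the stalk genes, Rpsa, all paralogs, the members that are not ribosomal proteins, and the 3 smallest p of each other list; Rpl5, Rpl10a, Rpl30, Rpl11, Rps27, Rpl22 and Rpl10 were singled out after their values were seen. Some members that this rule names are counted in every total but not reported here by name. The fit was tested on simulated data, with each gene drawn independently at the fitted trend of spread and changes in random directions. Genes that move together, as the members did, were not simulated, so the rates below do not describe that setting. A simulated 1.5-fold change was called in 16.4% of changed genes over all kept nuclei, 5.97% in glutamatergic-like nuclei and 0% in the lowest bin. For a 2-fold change it was 55.2%, 52.2% and 28.4%, and for unchanged genes 0.0242%, 0.0189% and 0.125%.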

Additional observations from a re-analysis of the deposited data

How the results depend on the processing

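Over all kept nuclei 0 members passed the adjusted threshold in edgeR, and DESeq2 called 4, against 15 of 16997 genes lower. Leaving out 1 library changed the count as well. With low counts unfiltered, members were called lower where 0 stood otherwise. In glutamatergic-like nuclei it was 3 of 84 (26 of 22444 genes in all), and in GABAergic-like nuclei 2 of 84 (32 of 21544). In cerebellar granule-like nuclei it was 15 of 83 (78 of 21620), and in astrocyte-like nuclei 9 of 84 (71 of 19814). OPC-like nuclei gave 2 of 84 (43 of 18570) and the low-depth cluster 16 of 83 (77 of 18699). All kept nuclei without that cluster gave 29 of 85 (89 of 25679). Without 1 library the calls ran from 0 to 2 in glutamatergic-like, 0 to 6 in GABAergic-like, 0 to 23 in cerebellar granule-like, 0 to 22 in astrocyte-like, 0 to 1 in oligodendrocyte-like, 0 to 1 in OPC-like nuclei, 0 to 43 in the low-depth cluster, 8 to 31 in the lowest depth bin, 0 to 6 from 1000 UMIs, 0 to 29 from 2000 UMIs and 0 to 25 from 4000 UMIs. In each bin from 1000 UMIs on, the highest of these counts came without KO replicate 2, a fit with 1 KO library left. That fit also called genes outside the members, both lower and higher. With all libraries, 0 genes were called in these bins in either direction. OPC-like nuclei gave 1 call with scaling to the total alone (26 of 6096 genes lower) and 1 with no mitochondrial maximum (30 of 6114). It was 1 as well with doublets kept (34 of 6621) and at 1000 UMIs (26 of 6083). With no mitochondrial maximum the low-depth cluster gave 1 (7 of 8184). With scaling to the total alone the lowest bin gave 2 (6 of 4551). The cause was not tested.

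The replicate numbers do not establish pairs. Across genes, the difference of replicate 1 from replicate 2 in WT was correlated with the same difference in KO. This correlation was -0.08 over all kept nuclei and between -0.15 and 0.31 in classes. With the replicate block 0 members were called over all kept nuclei, 9 in astrocyte-like nuclei (0.891% of all genes lower), 25 in the low-depth cluster (1.82%) and 12 in the lowest bin (0.703%). It changed no other count of calls. With crossed numbers in fibroblast-like nuclei, whose correlation was -0.15, 0 members and 40 genes in all were called.

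The percentage of tested members that were lower moved by over 1.5 times in endothelial-like nuclei, between 20% and 80.8% without 1 library, 45.5% being that without KO replicate 1; elsewhere its lowest value without 1 library was 73.7%, in microglia-like nuclei without WT replicate 1. The share difference (KO minus WT, percentage points) over all kept nuclei was -0.0807, -0.155 with no mitochondrial maximum and -0.132 thinned to 500 UMIs; thinned glutamatergic-like nuclei gave -0.0431. With no mitochondrial maximum it was -0.305 in endothelial-like and -0.157 in fibroblast-like nuclei, where a maximum of 1% gave -0.0533; endothelial-like nuclei gave -0.186 to 0.0274 without 1 library. The difference in genotype effect from astrocyte-like nuclei had 0 to 1 calls without 1 library.

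With scaling to the total alone, members above glutamatergic-like nuclei numbered 15 of 76 in GABAergic-like nuclei, against 2513 of 10735 genes. In fibroblast-like nuclei they numbered 64 of 73, against 4483 of 9858 genes. Without 1 library they ran from 2 of 75 to 7 of 79 in GABAergic-like nuclei, beside 13.1% to 14.8% of all genes. In cerebellar granule-like nuclei it was 22 of 78 to 55 of 80 (22.1% to 28.1%). In astrocyte-like nuclei it was 33 of 76 to 61 of 79 (26.8% to 28.8%), and in oligodendrocyte-like 26 of 78 to 42 of 79 (25% to 28.5%). In OPC-like nuclei it was 18 of 63 to 35 of 76 (21.1% to 24.3%). In microglia-like nuclei it was 32 of 67 to 47 of 73 (17.7% to 20.7%), and in endothelial-like 28 of 67 to 42 of 72 (13.2% to 17.6%).

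Of 1122 alternative values for named genes, 1043 kept sign and side of the threshold, 47 newly passed it, 11 no longer passed it and 21 changed sign, none of these past the threshold in the reported fit. Without 1 library, Rps19bp1 ran from -0.322 to 0.747 and Rps27l from -0.255 to 0.251 over all kept nuclei, Rpsa from -0.489 to 0.351 in fibroblast-like, -0.507 to 1.6 in microglia-like and -0.521 to 0.00181 in oligodendrocyte-like nuclei, Rpl7l1 from -0.0306 to 0.483 in GABAergic-like and Rpl36al from -1.62 to 0.184 in glutamatergic-like nuclei. With no mitochondrial maximum Rps19bp1 was -0.0736, Rps27l -0.36 and Rpsa -0.235 in fibroblast-like and -0.113 in microglia-like nuclei. With doublets kept Rps19bp1 was -0.0385, Rps27l -0.0148 and Rpsa in fibroblast-like nuclei -0.0632. Rps27l was -0.01 with the replicate block, Rpsa 0.0771 in thinned cerebellar granule-like nuclei and -0.0105 in fibroblast-like nuclei with scaling to the total alone.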
